A study of Homo sapiens with 8 samples.

Results

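After 12 h of MDM2 inhibition, FAM193A-knockout (KO) and wild-type (WT) CHP212 cells differed at 9989 of 15616 genes measured. The genes described are all those with 10 or more reads in at least 2 of the 4 Nutlin-3a libraries, which are 15616 of the 25369 genes listed. CHP212 is a human neuroblastoma cell line, grown in DMEM:F12 medium with serum. WT and KO cells received Nutlin-3a at 10 uM for 12 h, or DMSO at 0.2% for the same time. Each of the 4 groups held 2 independent biological replicates, so 8 poly(A) libraries were made, of which 4 came from Nutlin-3a cells. The labels name 1 KO population and do not describe the edit, so an effect of the lost gene and any other property of that population cannot be told apart.

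Nutlin-3a is a small molecule that sits in the pocket of MDM2 where p53 binds. MDM2 is the ubiquitin ligase that keeps p53 low, and it is itself a p53 target, so p53 and MDM2 form a negative feedback loop. Once released, p53 switches on genes for cell cycle arrest, apoptosis, DNA repair and its own restraint. One of them, CDKN1A, encodes p21, an inhibitor of cyclin-dependent kinases that keeps the RB family active. RB family proteins then hold E2F-driven S phase genes and, through the CHR element, mitotic genes at low levels. Neuroblastoma lines range between an adrenergic state, with noradrenaline-type gene programs, and a mesenchymal state.

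Library totals ran from 28390405 to 38010075 reads, and the 4 Nutlin-3a libraries held 31256915 and 28390405 (WT) and 35321561 and 32167147 reads (KO). Levels are given as CPM, that is reads per megaread of the library total after TMM scaling, and a difference is the fitted log2 ratio of KO to WT with its standard error (SE). A gene is called where the adjusted p of edgeR's quasi-likelihood test was under 0.05. Some libraries carried reads of genes that their replicate lacked. By a rule of at least 20 reads and at most 10% of that in the replicate, WT Nutlin-3a replicate 1 had 47 such genes (0.00894% of its reads), KO Nutlin-3a replicate 2 had 18 and WT DMSO replicate 2 had 22. Of those, 13, 1 and 3 were among the 15616 genes. The first principal component of the 4 Nutlin-3a libraries held 96.3% of the variance and separated the genotypes.

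FAM193A, the targeted gene, stood at 50.4 and 44.5 CPM in the WT Nutlin-3a libraries and at 42.0 and 38.04 in the KO libraries. The KO libraries were lower without overlap, by a log2 difference of -0.25 (SE 0.07, adjusted p = 0.00777). Under DMSO the difference was -0.33 (SE 0.08, adjusted p = 0.000942). The call under Nutlin-3a did not survive leaving out WT Nutlin-3a replicate 1 (-0.16, adjusted p = 0.0678), leaving out KO Nutlin-3a replicate 2 (-0.18, adjusted p = 0.109), or the change to limma-trend on RPKM (-0.14 to -0.15). It was -0.10 (adjusted p = 0.267) without the 3 libraries with unrelated reads. So the transcript was still read in KO cells, and since the edit is not described, its level is a weak check of the genotype labels. FAM193B, its paralogue, differed by 0.12 (SE 0.06, adjusted p = 0.0808), and passed as higher with upper-quartile factors (0.16, adjusted p = 0.0240) and with limma-trend on RPKM (0.20 to 0.21).

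Among the adrenergic markers used as defining, PHOX2A, HAND2, GATA3, ISL1, DBH and TH were read in all 8 libraries, DBH at 10 to 26 reads in WT cells. Of the whole list of 34, 1 to 3 were at 0 in each Nutlin-3a library. The 34 adrenergic markers summed to 4860 to 5050 CPM in the WT and 5660 to 5880 CPM in the KO Nutlin-3a libraries. Of 20 markers of epithelial, blood, endothelial, liver, pigment and muscle cells, 5 to 7 were at 0 in each Nutlin-3a library. Their sum was 664 and 690 CPM in WT and 230 and 245 CPM in KO cells, most of it from the keratin genes KRT8 and KRT18, which were lower in KO cells. The sum does not stand for the list, since of the 12 markers tested 4 were higher and 4 lower in KO cells. Their median log2 difference was 0.57, and over all genes tested 33.0% were higher and 31.0% lower. The part of such markers in the other differences was not tested.

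Under Nutlin-3a, 5154 genes were higher in KO cells (33.0% of those tested) and 4835 were lower (31.0%). Over 2-fold, 1583 were higher (10.1%) and 1315 lower (8.42%), and beyond 4 on the log2 scale 170 were higher and 119 lower. Small differences made up much of the count, since 2159 of the higher and 2356 of the lower genes differed by less than 0.5. On the authors' RPKM scale, with limma-trend on log2(RPKM + 0.1), the split moved to 6210 higher and 3722 lower, and the median over all genes moved from 0.01 to 0.11. In RNA from whole cultures, fewer cells of a kind and less RNA per cell cannot be told apart.

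**Figure D1:**
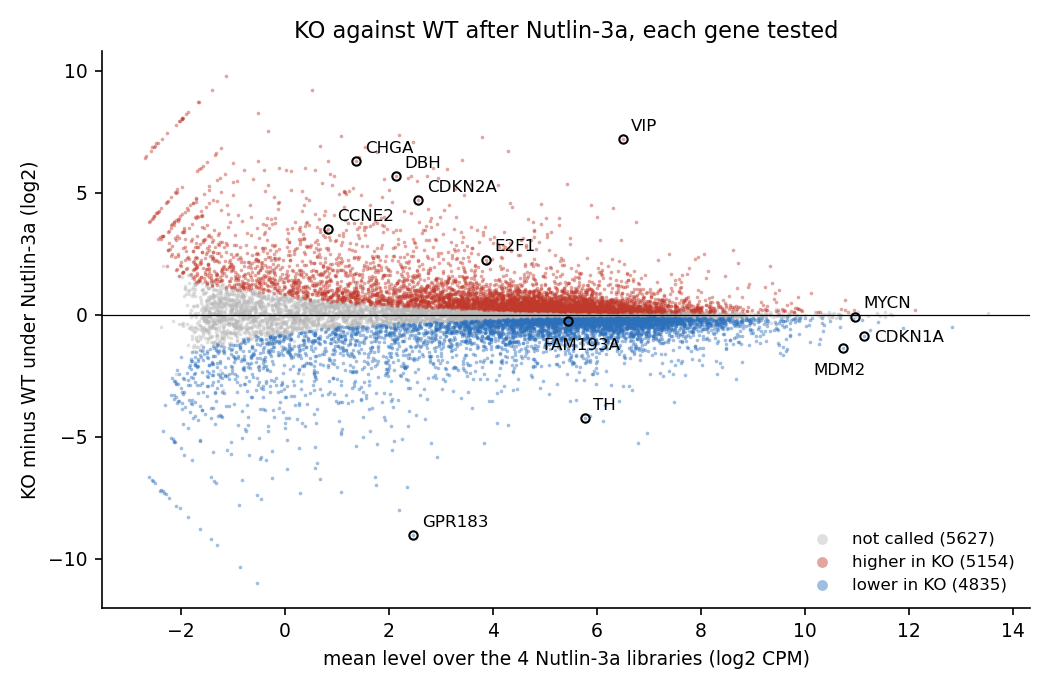
Each point is a gene; the x axis is its mean level over the 4 Nutlin-3a libraries (log2 CPM) and the y axis the KO minus WT difference under Nutlin-3a (log2). Red and blue points are the 5154 genes called higher and the 4835 called lower, gray points the 5627 not called. VIP and GPR183 lie far from 0, while FAM193A and MYCN lie close to it.

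Among genes whose log2 CPM averaged at least 1, the widest rises included genes that WT cells barely expressed. VIP, the gene for vasoactive intestinal peptide, had 7.81 and 7.15 CPM in the WT libraries and 1046 and 1141 CPM in the KO libraries, a difference of 7.19 (SE 0.07, adjusted p = 4.1e-21). TMPRSS15, which encodes enteropeptidase, had 0.856 and 1.37 against 184 and 154 CPM (7.26, SE 0.13). ODAM, a tooth-associated secreted protein gene, had 2.21 and 1.62 against 197 and 201 CPM (6.69, SE 0.09). Each of these was low in WT and far higher in KO cells. FAM19A5, PLIN2, CABP7, CXCL12, GNAT3, BRINP3, GDF10, CHGA and MAPK4 completed the 12 widest rises, with differences between 6.02 and 7.35. PLIN2 coats lipid droplets, CXCL12 is a chemokine and GDF10 a TGF-beta family ligand. All 12 were also called higher under DMSO, by 5.32 to 8.16.

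The widest falls included genes that KO cells barely expressed. GPR183, a chemotactic receptor gene, had 122 and 105 CPM in WT and 0.244 and 0.180 CPM in KO cells (log2 difference -9.03, SE 0.14, adjusted p = 6.0e-19). FOXL2, a transcription factor gene of the ovary and eyelid, had 67.6 and 64.9 against 0.271 and 0.240 CPM (-7.99, SE 0.13), and its neighbour FOXL2NB differed by -7.05. RGS5, a regulator of G protein signaling, fell from 704 and 663 to 18.7 and 16.8 CPM (-5.27, SE 0.07). In all 3 the genotypes lay far apart and the replicates close together. SBK3, ITGA8, THBD, NMNAT2, PLAC8, CD163L1, MYD88 and PAX9 completed the 12, with differences between -7.24 and -5.26. MYD88 is the adaptor of Toll-like receptors and THBD encodes thrombomodulin. All 12 were also called lower under DMSO, by -10.43 to -4.82, of which the value of FOXL2 rests on 1 and 2 KO reads.

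Genes with 0 reads in both Nutlin-3a libraries of a genotype have no fitted fold of use, so bounds were set against 3 reads over the group. In KO cells 18 of the 15616 genes had 0 reads. CRH, the gene for corticotropin-releasing hormone, had 232 and 212 reads in the WT libraries, so it was at least 179-fold lower in KO cells. GJA3, a lens connexin gene, had 76 and 78 WT reads (at least 62.1-fold lower), and XAF1, an apoptosis factor gene, had 37 and 32 (at least 27.7-fold lower). In WT cells 24 genes had 0 reads. GRIK3, a kainate receptor gene, had 88 and 72 reads in KO cells (at least 44.1-fold higher), and DAB1, an adaptor of reelin signaling, had 69 and 45 (at least 31.2-fold higher). GJA3, GRIK3 and DAB1 were chosen after their values were seen.

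By level per transcript length (RPKM), the largest rises in KO cells included VIP, IGFBP2 and ASS1. IGFBP2, a carrier of insulin-like growth factors, had 167 and 149.6 CPM in WT and 1015 and 966 CPM in KO cells (2.64, SE 0.06). ASS1, which makes argininosuccinate for arginine synthesis, had 328 and 316 against 1335 and 1248 CPM (2.00, SE 0.05). The ribosomal protein gene RPS6 (0.89), the actin-binding thymosin gene TMSB4X (0.71) and the neuropeptide gene GAL (2.29) were the others. The largest falls in RPKM were S100A4, DDX1, S100A6, ACTG1, LGALS1 and B2M. S100A4, a calcium-binding protein gene often high in mesenchymal cells, had 736 and 611 CPM in WT and 23.4 and 23.4 CPM in KO cells (-4.85, SE 0.08). DDX1, an RNA helicase gene next to MYCN and often amplified with it, had 8796 and 8497 against 6003 and 6241 CPM (-0.50, SE 0.05).

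The p53 pathway was read from its regulators to its targets. MDM2 had 2620.0 and 2771 CPM in WT and 1079 and 1048 CPM in KO cells (log2 difference -1.34, SE 0.05, adjusted p = 3.0e-14). Every KO value lay under every WT value, and under DMSO the same gene did not differ past the threshold (-0.11, SE 0.05, adjusted p = 0.0612). MDM4, the partner of MDM2 that masks p53, had 262 and 249.9 against 238 and 227 CPM (-0.14, SE 0.05, adjusted p = 0.0136). The MDM4 call was lost without KO Nutlin-3a replicate 2 (-0.10, adjusted p = 0.144), with upper-quartile factors (-0.10, adjusted p = 0.0723), in a fit of the 4 Nutlin-3a libraries alone (adjusted p = 0.0571) and with limma-trend on RPKM (-0.04). CDKN2A, the locus of p16 and of p14ARF, which restrains MDM2, had 1.05 and 1.22 CPM in WT and 30.5 and 28.3 CPM in KO cells (4.69, SE 0.13). Of 33 regulators of p53 tested, 13 were higher and 11 lower in KO cells, with a median of 0.01, near the shares over all genes (33.0% and 31.0%). With limma-trend on log2(RPKM + 0.1) 14 were higher and 5 lower. Members that were higher included CABLES1 (1.45) and the p53-binding protein gene PPP1R13B (0.72), and the kinase gene HIPK2 was lower (-0.57).

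Of 122 core p53 target genes, 99 were lower and 6 higher in KO cells under Nutlin-3a, with a median difference of -0.59. The median over all genes tested was 0.01. Under DMSO the same list had 56 lower and 31 higher, with a median of -0.17, against 30.6% of all genes lower and 31.7% higher. CDKN1A, the p21 gene, had 3122 and 2938 CPM in WT and 1709.8 and 1649 CPM in KO cells (log2 difference -0.85, SE 0.05, adjusted p = 2.0e-11). RRM2B, the p53-induced ribonucleotide reductase subunit, had 333 and 342 against 137 and 131 CPM (-1.33, SE 0.04). In both genes the KO level was well under the WT level and the replicates lay close together. Their differences under DMSO were -0.58 and -0.31. So both genes were lower in KO cells with and without the drug, and lower by more with it.

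Among 15 arrest targets, 10 were lower and 4 higher in KO cells (median -0.42). GDF15, a stress cytokine gene, had 883 and 807 CPM in WT and 403 and 359 CPM in KO cells (-1.15, SE 0.06). GADD45A, a growth arrest and stress gene, had 586 and 528 against 300.3 and 299 CPM (-0.89, SE 0.05), and the polo-like kinase gene PLK3 differed by -1.24. PLK2, another kinase of that family, went the other way, with 225 and 228 CPM in WT and 357 and 369 CPM in KO cells (0.68, SE 0.04). BTG2, an antiproliferative gene, had 373 and 361 CPM in WT and 299.8 and 251 CPM in KO cells (-0.42, SE 0.07), while under DMSO it was higher in KO cells by 1.99.

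Among 28 apoptosis targets, 20 were lower and 3 higher (median -0.40). PERP, a p53 effector at the cell membrane, had 114 and 100.01 CPM in WT and 24.9 and 24.3 CPM in KO cells (-2.12, SE 0.07). TP53I3, a quinone oxidoreductase gene, had 905 and 879 against 419.9 and 426 CPM (-1.08, SE 0.05), and the caspase-activating scaffold gene PIDD1 differed by -0.89. The BH3-only genes did not move together. BBC3 (PUMA) had 105 and 101 against 94.4 and 82.9 CPM (-0.21, SE 0.06, adjusted p = 0.00619), whereas PMAIP1 (NOXA) differed by 0.10 (adjusted p = 0.106). BAX, the pore-forming effector, had 382 and 341 against 338 and 326 CPM (-0.12, SE 0.06, adjusted p = 0.0628). Without KO Nutlin-3a replicate 2 the BBC3 call was lost (-0.12) and PMAIP1 passed (0.15), and without WT Nutlin-3a replicate 2 BAX passed (-0.21). With limma-trend on RPKM the BBC3 call was lost too (-0.12) and PMAIP1 passed as higher (0.19). PMAIP1 also passed with upper-quartile factors (0.14, adjusted p = 0.0244), and BAX as lower with DESeq2 size factors (-0.14, adjusted p = 0.0298). BCL2L11 (BIM) was higher in KO cells (1.10), as were IGFBP3, an insulin-like growth factor carrier (1.43), and SIVA1 (0.33).

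Of 12 feedback genes 7 were lower and 1 higher (median -0.37), and of 32 repair and metabolism targets 20 were lower and 6 higher (median -0.28). TP53INP1, a p53-induced nuclear protein gene, had 404 and 438 CPM in WT and 283 and 278 CPM in KO cells (-0.58, SE 0.05). C12orf5, an earlier name of TIGAR, which slows glycolysis, had 235 and 239.9 against 117 and 113 CPM (-1.05, SE 0.05). FANCC, a Fanconi anemia repair gene, differed by -1.77 and the peroxidase gene GPX1 by -1.03. Of the nucleotide excision repair genes, XPC was lower (-0.31) and DDB2 was not called (0.05, adjusted p = 0.420), although it passed as higher with limma-trend on RPKM (0.14). The 6 core targets higher in KO cells were EDN2 (1.95), PLK2 (0.68), KITLG (0.54), SPHK1 (0.42), TP53INP2 (0.26) and AEN (0.19). Without KO Nutlin-3a replicate 1 the calls of SPHK1 (adjusted p = 0.0701) and TP53INP2 (adjusted p = 0.117) were lost. The SPHK1 adjusted p was also 0.171 without WT Nutlin-3a replicate 1 and 0.106 without KO Nutlin-3a replicate 2, and that of TP53INP2 was 0.0555 without WT Nutlin-3a replicate 2. These 6 genes encode, in that order, an endothelin, a kinase, the ligand of the KIT receptor, a sphingosine kinase, an autophagy-linked protein and a nuclease. The widest difference of the list was in PADI4, which had 104 and 130 reads in WT and 1 and 0 reads in KO Nutlin-3a cells, and 0 reads in all 4 DMSO libraries.

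**Figure D2:**
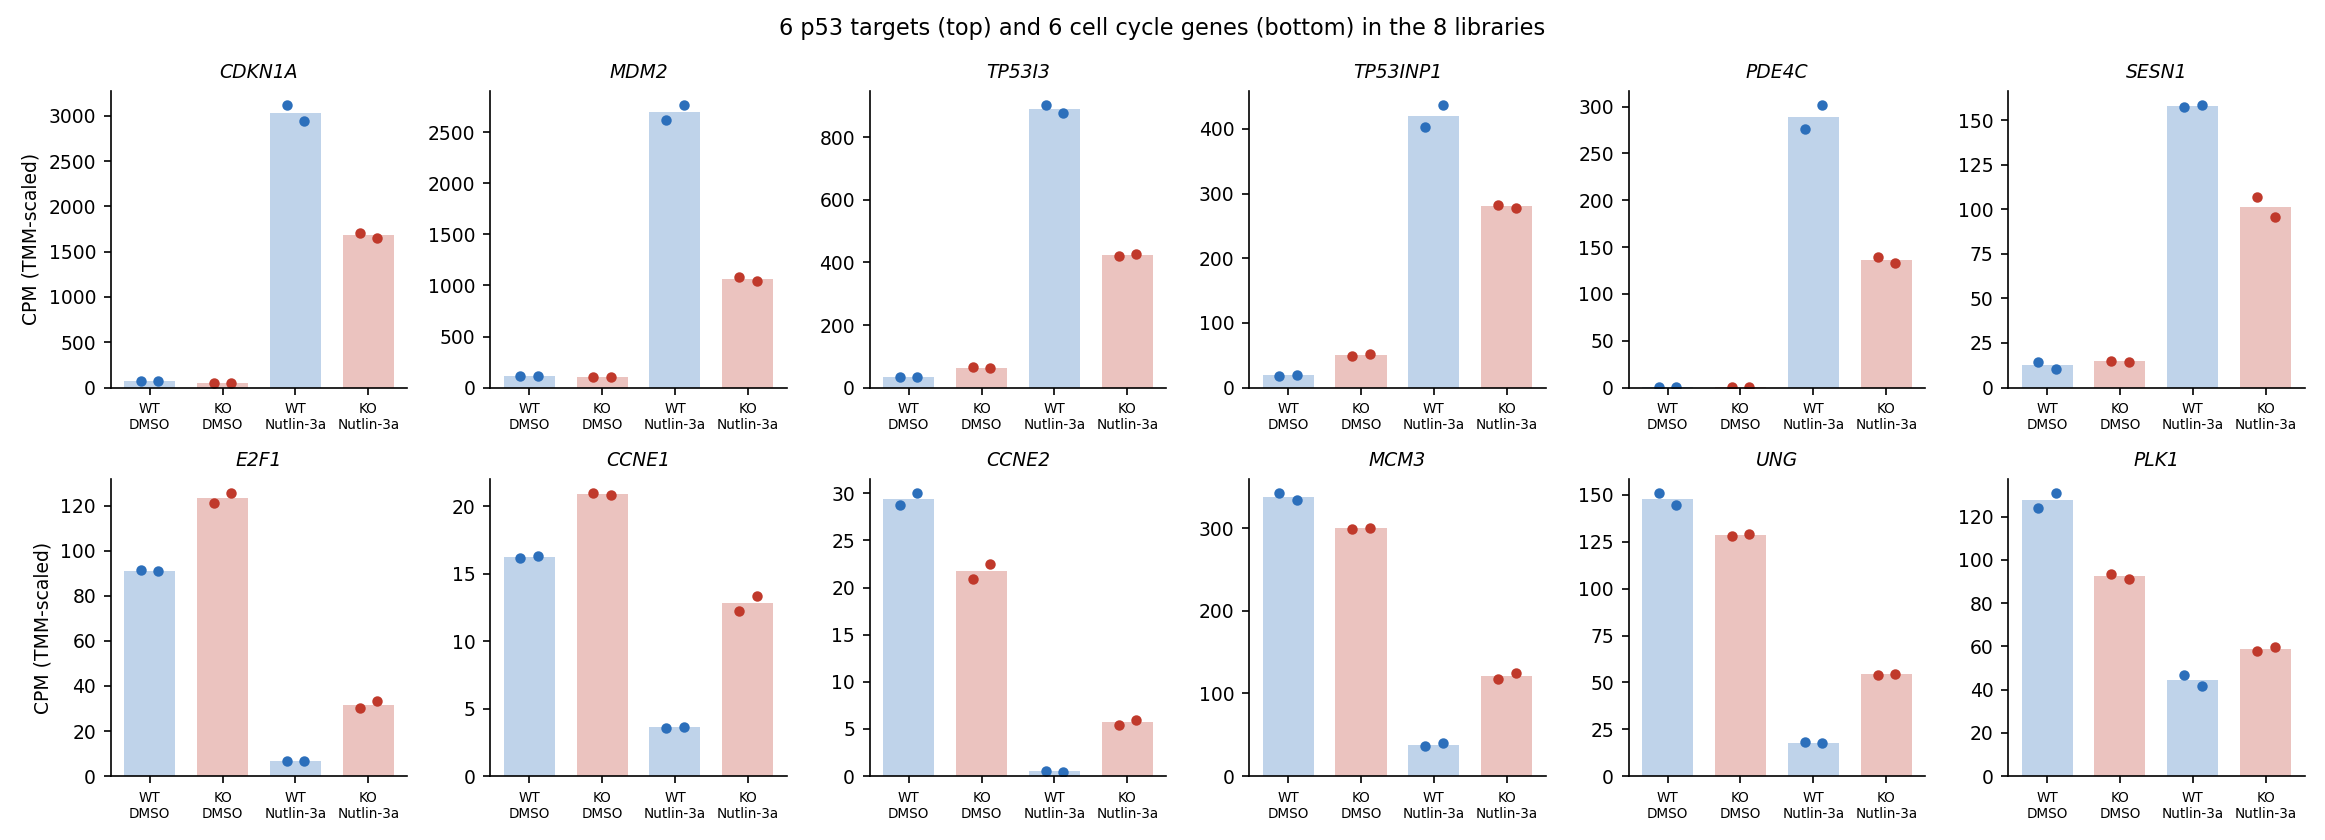
Bars show the mean and points the 2 libraries of each group in CPM on linear axes from 0, for 6 p53 targets (top row) and 6 cell cycle genes (bottom row). Under Nutlin-3a the KO points (red) lie under the WT points (blue) for all 6 p53 targets and above them for all 6 cell cycle genes.

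Promoter sequence was available for part of each list, taken from RefSeq (GRCh38.p14) as 300 bases around the annotated start, and searched on both strands. A p53 decamer stood in 19 of 98 core target promoters (19.4%), against 7.96% of 11967 tested genes with a sequence and 6.63% of all 35116 windows. The decamer pattern reads the same on both strands, so 1 site counts on each. Examples follow, each as the 150 bases before the start with the decamer in capitals, chosen after values were seen because they behaved differently. FDXR lies at chr17:74872995-74873144 (minus strand), SESN1 at chr6:109008989-109009138 (minus strand) and AEN at chr15:88621190-88621339 (plus strand).
FDXR: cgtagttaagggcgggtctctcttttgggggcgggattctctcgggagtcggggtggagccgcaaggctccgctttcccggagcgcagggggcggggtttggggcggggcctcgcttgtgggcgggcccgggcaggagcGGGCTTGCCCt
SESN1: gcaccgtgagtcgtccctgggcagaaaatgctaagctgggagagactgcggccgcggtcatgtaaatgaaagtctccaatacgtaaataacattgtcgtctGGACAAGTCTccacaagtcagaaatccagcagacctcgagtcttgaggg
AEN: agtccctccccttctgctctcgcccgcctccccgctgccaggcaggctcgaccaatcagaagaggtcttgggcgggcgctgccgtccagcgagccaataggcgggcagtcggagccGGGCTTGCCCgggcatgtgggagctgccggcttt
FDXR, an electron carrier gene of mitochondria, had 816 and 804 CPM in WT and 518 and 497 CPM in KO cells (-0.68, SE 0.04). SESN1, a sestrin gene that restrains mTOR, had 157 and 159 against 107 and 95.7 CPM (-0.64, SE 0.08). AEN had 209 and 209.5 against 244 and 234 CPM (0.19, SE 0.04), so the same kind of sequence stood before genes that were lower and 1 that was higher in KO cells. Over all genes, 35.1% of the 952 with the decamer were lower in KO cells under Nutlin-3a, and 31.8% of the 11015 without it.

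Cell cycle genes stood the other way. Of 50 G1/S genes, 46 were higher and 1 lower in KO cells under Nutlin-3a (median 0.75). Under DMSO 31 of the same genes were lower and 6 higher (median -0.21). E2F1, the founding E2F transcription factor gene, had 6.62 and 6.65 CPM in WT and 30.1 and 33.2 CPM in KO cells (log2 difference 2.25, SE 0.08, adjusted p = 2.0e-14). MCM3, a subunit of the replicative helicase, had 36.5 and 39.6 against 117 and 125 CPM (1.67, SE 0.05). MCM2, another subunit, had 32.3 and 34.8 against 99.4 and 105 CPM (1.61, SE 0.06). All KO values lay above all WT values, by about the same ratio for both helicase genes. UNG, the uracil glycosylase gene, had 18.1 and 17.6 against 54.1 and 54.6 CPM (1.60, SE 0.06).

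The cyclin E genes differed as well. CCNE2 had 0.527 and 0.467 CPM in WT and 5.40 and 5.99 CPM in KO cells (3.50), and CCNE1 differed by 1.82. E2F2 (3.97), E2F8 (4.0) and the primase gene PRIM1 (1.89) were higher too. E2F8 rests on 2 and 1 WT reads against 41 and 21 KO reads. WDR76, a gene outside the list named for its interaction, had 3.03 and 3.41 against 25.8 and 25.2 CPM (2.99, SE 0.09). The G1/S genes not called higher were RFC3, a clamp loader subunit, which was lower (-0.31), and PCNA (-0.05), UHRF1 (0.01) and FAM111B (0.37), which were not called. PCNA passed as lower without WT Nutlin-3a replicate 2 (-0.13, adjusted p = 0.00818), and UHRF1 turned to -0.16 (adjusted p = 0.0176) without the 3 libraries with reads of unrelated genes. The helicase loader gene CDC6 had a smaller difference (0.51) than MCM3.

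The difference under Nutlin-3a exceeded that under DMSO for 48 of the 50 G1/S genes by the interaction test, where 14.4% of all genes moved that way and 13.6% the other. The median interaction of the list was 1.07. For the core p53 targets the interaction was negative in 69 and positive in 9 of 122 genes, with a median of -0.39. The interaction shares its libraries with both comparisons, so these counts add no independent evidence to them.

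An E2F motif, TTTCGCGC or TTTGGCGC on either strand, stood in 17 of 41 G1/S promoters (41.5%), against 2.35% of tested genes and 1.15% of all windows. The CHR motif, TTTGAA, stood in 28 of 40 G2/M promoters (70.0%), against 14.1% of tested genes and 15.2% of all windows. Both motifs begin with the same letters and cannot match at the same place on 1 strand. Examples follow with the motif in capitals, chosen for a match close to the start. E2F1 lies at chr20:33686386-33686535 (minus strand), CDC25A at chr3:48188418-48188567 (minus strand), CCNB2 at chr15:59104996-59105145 (plus strand) and PLK1 at chr16:23678739-23678888 (plus strand), each in GRCh38.p14.
E2F1: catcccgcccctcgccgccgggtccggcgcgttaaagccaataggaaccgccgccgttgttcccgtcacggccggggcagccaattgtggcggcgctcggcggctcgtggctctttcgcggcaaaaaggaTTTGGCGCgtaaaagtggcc
CDC25A: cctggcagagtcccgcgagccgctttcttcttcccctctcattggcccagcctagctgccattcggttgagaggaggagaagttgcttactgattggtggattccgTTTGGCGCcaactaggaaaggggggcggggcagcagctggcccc
CCNB2: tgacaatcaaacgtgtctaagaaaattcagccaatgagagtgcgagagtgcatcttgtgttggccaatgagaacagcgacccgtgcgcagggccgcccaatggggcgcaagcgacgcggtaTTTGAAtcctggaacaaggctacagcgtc
PLK1: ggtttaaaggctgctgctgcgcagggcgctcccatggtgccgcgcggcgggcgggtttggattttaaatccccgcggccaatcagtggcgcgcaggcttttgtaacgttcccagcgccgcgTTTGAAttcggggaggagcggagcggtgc
CDC25A, the phosphatase that activates S phase kinases, had 8.27 and 7.51 CPM in WT and 14.7 and 15.0 CPM in KO cells (0.91, SE 0.08). CCNB2, the cyclin B2 gene, had 48.5 and 43.7 against 66.2 and 71.5 CPM (0.58, SE 0.06). PLK1, the main mitotic polo-like kinase gene, had 46.6 and 41.9 against 57.6 and 59.7 CPM (0.41, SE 0.06). The E2F promoters shown thus belonged to genes with the wider differences. Among all 281 tested genes with the E2F motif, 40.6% were higher and 22.1% lower in KO cells under Nutlin-3a, against 33.3% and 32.3% of the 11686 without it. Among 1687 genes with the CHR motif, which is short and common, 35.3% were higher and 31.2% lower. These shares were near those of the 10280 genes without it, 33.1% and 32.2%.

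Of 48 G2/M genes, 40 were higher and 3 lower in KO cells (median 0.46), and under DMSO 29 were lower and 5 higher (median -0.20). CDC25B, the phosphatase that triggers mitotic entry, had 72.2 and 70.5 CPM in WT and 178 and 169 CPM in KO cells (1.28, SE 0.05). CCNA2, the cyclin A2 gene, had 39.7 and 40.1 against 71.0 and 71.8 CPM (0.84, SE 0.05). AURKB, the kinase of the chromosomal passenger complex, had 19.7 and 17.0 against 35.4 and 37.9 CPM (0.99, SE 0.07). These genes were higher in both KO libraries, by smaller ratios than E2F1 or MCM3. The members that were lower were CKAP2 (-0.76), CKS1B (-0.35) and CKS2 (-0.20). CDK1 (0.06), BUB1 (0.13), AURKA (0.13), ANLN (-0.14) and PTTG1 (-0.01) were not called. Without WT Nutlin-3a replicate 1, CDK1 (0.13), AURKA (0.18) and ANLN (-0.20) passed and CKS2 did not (-0.14). Without KO Nutlin-3a replicate 1 BUB1 passed (0.22) and CKS2 did not (-0.13), and without KO Nutlin-3a replicate 2 ANLN passed (-0.21). With limma-trend on log2(RPKM + 0.1), CDK1 (0.15), AURKA (0.22) and BUB1 (0.22) passed as higher and CKS2 did not pass (-0.11). ANLN also passed as lower with DESeq2 size factors (-0.16, adjusted p = 0.0360).

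Of 15 CDK inhibitor and RB family genes tested, 7 were higher and 4 lower in KO cells under Nutlin-3a (median 0.10), against 33.0% and 31.0% of all genes. RB1, the retinoblastoma protein gene, had 111 and 115 CPM in WT and 29.4 and 30.3 CPM in KO cells (-1.92, SE 0.05), and its DMSO difference was -1.83. CCND1, the cyclin D1 gene, had 1344 and 1375 against 418 and 456 CPM (-1.64, SE 0.05). CDK6, a partner kinase of D cyclins, had 117 and 128 against 319.9 and 303 CPM (1.35, SE 0.05). RBL1, the p107 gene, was higher (0.69) and RBL2, the p130 gene, was not called (-0.07). Of the inhibitors, CDKN2B (2.36) and CDKN1C (1.61) were higher, and CDKN1B (0.10) was not called. RBL2 passed without WT Nutlin-3a replicate 1 (-0.11) and CDKN1B without WT Nutlin-3a replicate 2 (0.10). CDKN1B also passed as higher with upper-quartile factors (0.14, adjusted p = 0.0122) and with limma-trend on RPKM (0.19).

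**Figure D3:**
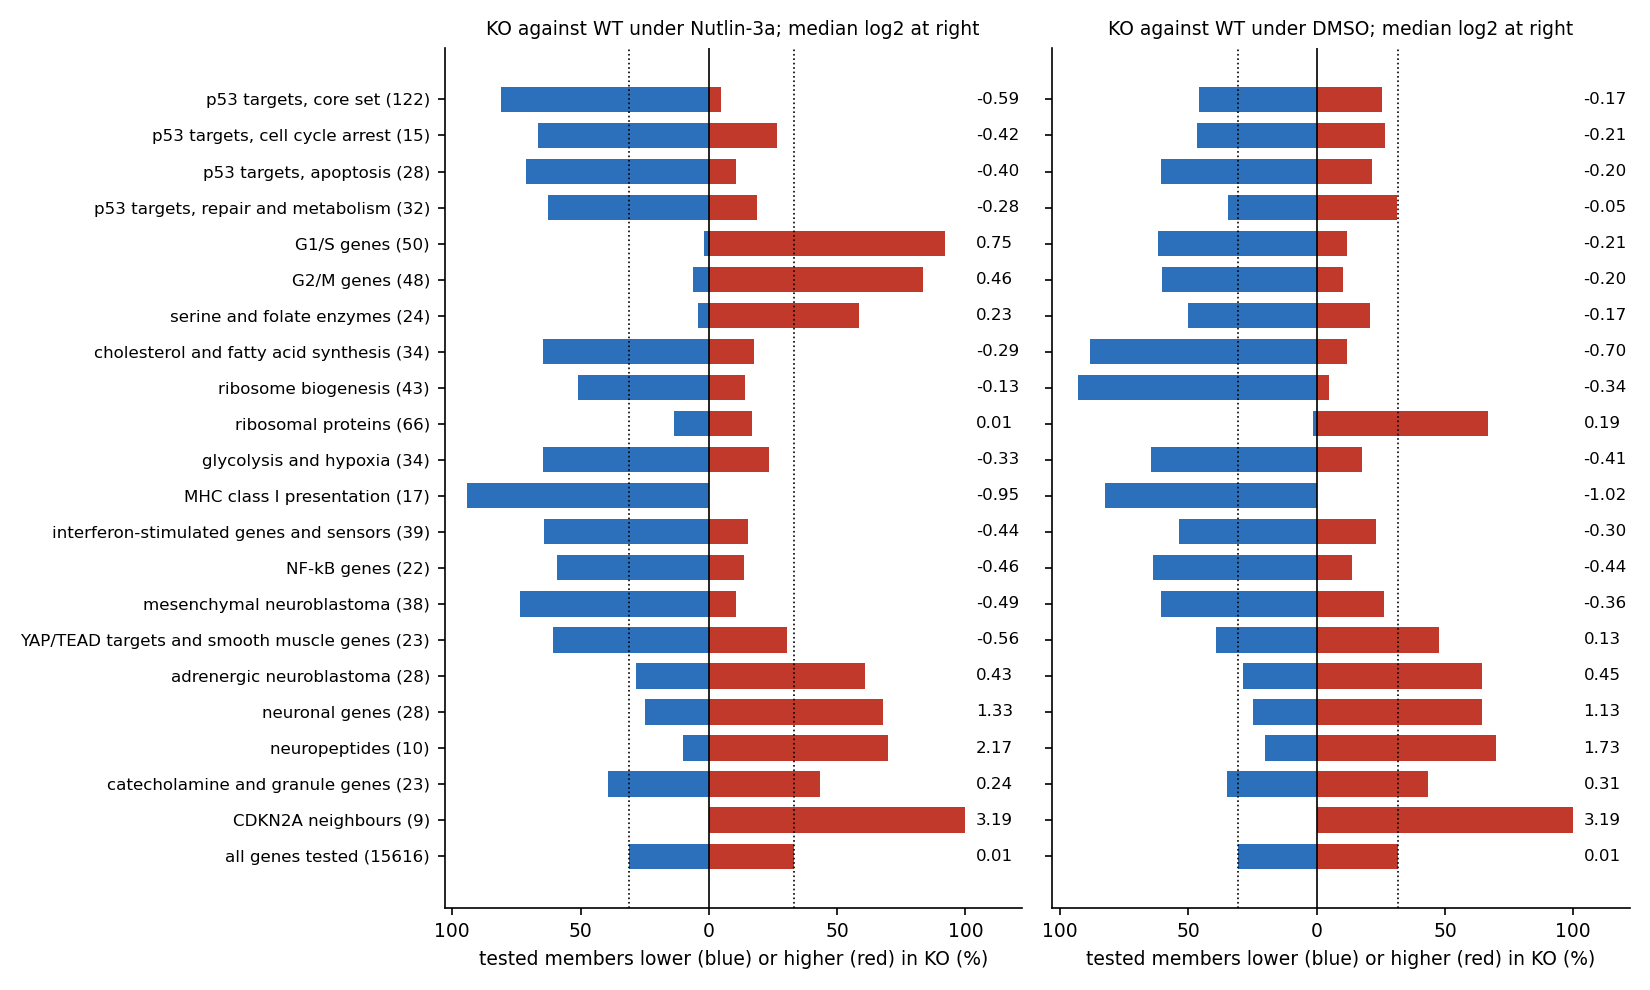
Bars give the percent of tested members of each list called lower (blue, to the left) or higher (red, to the right) in KO cells, under Nutlin-3a on the left and DMSO on the right, with the median log2 difference at the right edge of each panel and the number tested in parentheses. Dotted lines mark the shares over all genes tested; G1/S and G2/M genes change sides between the panels.

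Genes of biosynthesis did not share one direction. Of 24 serine and folate enzymes, which feed nucleotide synthesis, 14 were higher and 1 lower in KO cells under Nutlin-3a (median 0.23), while under DMSO 12 were lower and 5 higher. PHGDH, the first enzyme of serine synthesis, had 72.7 and 72.4 CPM in WT and 183 and 169 CPM in KO cells (1.28, SE 0.05). TYMS, which makes thymidylate and also stands in the G1/S list, differed by 0.73. SLC1A4, a serine transporter gene, differed by 1.83.

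Of 34 cholesterol and fatty acid genes, 22 were lower and 6 higher (median -0.29), and under DMSO 30 were lower (median -0.70). FDFT1, squalene synthase, had 219 and 206 CPM in WT and 102 and 100.1 CPM in KO cells (-1.07, SE 0.05). It was lower under DMSO too (-1.35). HMGCS1, the gene of an early step, differed by -0.32 under Nutlin-3a and by -1.19 under DMSO, and CYP51A1 by 0.43 and -0.25. The interaction was positive in 25 and negative in 4 of the 34 genes.

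Of 43 ribosome biogenesis genes 22 were lower and 6 higher (median -0.13), against 40 lower and 2 higher under DMSO. LYAR (-0.64), the rRNA processing gene WDR43 (-0.47) and the helicase gene DDX21 (-0.44) were lower, and UBTF, the activator of RNA polymerase I, was higher (0.35). Of 66 ribosomal protein genes 46 were not called, 11 were higher and 9 lower, with a median of 0.01. Over all genes tested, 33.0% were higher and 31.0% lower. That median turned to -0.01 with DESeq2 size factors, and 25 genes were higher and 12 lower without the 3 libraries with reads of unrelated genes. Under DMSO 44 of the 66 were higher. RPS6 had the widest difference (0.89), and RPL13A was lower (-0.51), although ribosomal protein genes share sequence with many pseudogenes and their reads can be split.

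Of 34 glycolysis and hypoxia genes, 22 were lower and 8 higher (median -0.33). SLC16A3, the lactate exporter MCT4, had 254 and 254 CPM in WT and 19.0 and 20.7 CPM in KO cells (-3.68, SE 0.07). SLC2A1, the glucose transporter GLUT1, had 57.0 and 56.1 against 12.7 and 13.97 CPM (-2.09, SE 0.07), and the kinase genes PFKP (-1.55) and PFKFB3 (-1.43) were lower too. Of 31 unfolded protein and amino acid stress genes 14 were lower and 11 higher, against 31.0% and 33.0% of all genes. The median of that list was -0.05, and its differences ran from -1.64 to 1.79. HSPA5, the main chaperone of the endoplasmic reticulum, had 1127 and 1126 against 619 and 619 CPM (-0.86, SE 0.04), and STC2 (-1.64) and EDEM1 (-1.03) were lower as well. Of 30 immediate early genes, 16 were lower and 6 higher, as for KLF4 (-1.49), KLF6 (-1.19) and EGR3 (-1.89), whereas the phosphatase gene DUSP4 was higher (1.24).

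Genes of antigen presentation were lower in KO cells. Of 17 MHC class I presentation genes, 16 were lower and 0 higher under Nutlin-3a (median -0.95), against 14 lower under DMSO (median -1.02). TAP1, a peptide transporter subunit, had 138 and 140 CPM in WT and 25.9 and 25.7 CPM in KO cells (-2.43, SE 0.06). ERAP2, a trimming peptidase gene, had 468 and 475 against 129.6 and 136 CPM (-1.83, SE 0.05). B2M, the invariant light chain, had 1187 and 1062 against 566 and 560.4 CPM (-1.0, SE 0.05). The immunoproteasome subunits PSMB8 (-2.62) and PSMB9 (-2.65) had the widest differences. HLA-C (-1.38) and HLA-B (-0.91) were lower, with the reservation that HLA genes resemble one another and differ between people.

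Of 39 interferon-stimulated genes and sensors, 25 were lower and 6 higher (median -0.44). IRF1, a transcription factor of the interferon response, had 138 and 133 CPM in WT and 22.2 and 20.1 CPM in KO cells (-2.68, SE 0.06). BST2, tetherin, had 16.5 and 14.02 against 1.03 and 1.17 CPM (-3.79, SE 0.16), and the double-stranded RNA sensor gene TLR3 differed by -2.20. PARP9 was among the members that were higher (1.23). Of 22 NF-kB genes 13 were lower and 3 higher (median -0.46), with NFKBIZ (-1.81), BIRC3 (-2.34) and TNIP1 (-0.55) lower.

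Lineage genes were mixed within each list. Of 28 adrenergic genes, 17 were higher and 8 lower in KO cells (median 0.43). PHOX2A, an adrenergic homeobox gene, had 7.90 and 7.87 CPM in WT and 53.4 and 48.8 CPM in KO cells (2.70, SE 0.08), which were far higher. TH, tyrosine hydroxylase, the rate-limiting enzyme of catecholamine synthesis, had 245 and 228 against 12.3 and 12.9 CPM (-4.23, SE 0.06). DBH, the enzyme that turns dopamine into noradrenaline, was higher (5.67), so these enzymes of the same pathway stood in opposite directions. GATA3 (-0.70) and ISL1 (-0.73) were lower, while HAND2 (0.52) was higher.

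MYCN, the oncogene amplified in many neuroblastomas, had 2106 and 2009.9 CPM in WT and 2002 and 1894 CPM in KO cells (log2 difference -0.08, SE 0.05, adjusted p = 0.155). It passed without WT Nutlin-3a replicate 2 (-0.12, adjusted p = 0.0144) and with the DESeq2 Wald test (-0.10, adjusted p = 0.0431). Under DMSO it was lower in KO cells (-0.46, adjusted p = 1.5e-07). Of 16 genes around MYCN 10 were lower and 2 higher, against 6 lower with upper-quartile factors and 5 lower with limma-trend on log2(RPKM + 0.1). GREB1 (-1.03), FAM49A (-2.10) and VSNL1 (-4.44) were lower and SMC6 was higher (0.59).

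Of 23 catecholamine and granule genes 10 were higher and 9 lower, against 33.0% and 31.0% of all genes, so no direction is read for this list. CHGA, chromogranin A, had 0.132 and 0.431 CPM in WT and 24.0 and 19.9 CPM in KO cells (6.30, SE 0.22), and the calcium sensor gene SYT4 (4.83) and the vesicle gene RAB3B (3.31) were higher. Of 10 neuropeptide genes 7 were higher and 1 lower (median 2.17), with VIP, GAL, CALCB (3.09) and ADCYAP1 (2.05) higher and CRH lower. Of 28 neuronal genes 19 were higher and 7 lower (median 1.33). NCAM1, a neural adhesion gene, had 98.0 and 95.9 CPM in WT and 310.3 and 303 CPM in KO cells (1.66, SE 0.05), while NEFL, the light neurofilament gene, had 127 and 119.7 against 32.6 and 34.2 CPM (-1.88, SE 0.06). RET, the receptor of GDNF family ligands, had 413 and 433 against 1051 and 1019 CPM (1.29, SE 0.05).

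Of 38 mesenchymal neuroblastoma genes, 28 were lower and 4 higher (median -0.49), and 7 were higher without the 3 libraries with reads of unrelated genes. NT5E, the ectonucleotidase CD73, had 309 and 296 CPM in WT and 56.5 and 56.4 CPM in KO cells (-2.42, SE 0.05). CD44, the hyaluronan receptor gene, had 192 and 176 against 53.8 and 53.9 CPM (-1.77, SE 0.05), and RUNX2 differed by -1.85. VIM, the vimentin gene, had 1736 and 1533 against 1649 and 1631 CPM, which overlapped (0.01, SE 0.05, adjusted p = 0.945). It passed without WT Nutlin-3a replicate 1 (0.09, adjusted p = 0.0498). So most of the list was lower while its intermediate filament gene overlapped between the genotypes. Fibronectin, FN1, was higher (1.22).

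Of 23 YAP/TEAD targets and smooth muscle genes 14 were lower and 7 higher (median -0.56), whereas under DMSO 9 were lower and 11 higher. CTGF, a YAP target, had 163 and 156 CPM in WT and 56.7 and 66.3 CPM in KO cells (-1.38, SE 0.06), against -0.31 under DMSO. CYR61, another YAP target, had 97.5 and 92.2 against 49.995 and 53.5 CPM (-0.88, SE 0.06), against 0.19 under DMSO. TAGLN, a smooth muscle gene, was higher in both treatments (3.20 and 3.65). Of 50 matrix and integrin genes 27 were lower and 15 higher (median -0.36), against 31.0% and 33.0% of all genes. Under DMSO 25 of the same list were lower and 15 higher (median -0.30). COL4A1, a basement membrane collagen, had 467 and 512 against 86.7 and 90.8 CPM (-2.46, SE 0.05), and ITGA3 had 719 and 769 against 132 and 142 CPM (-2.44, SE 0.06). COL1A2 had 0 reads in both WT Nutlin-3a libraries and 30 and 41 in KO libraries and was not called; WT DMSO replicate 2 held 268 reads of it and replicate 1 held 13. It passed as higher without either of those libraries (adjusted p = 5.9e-06 without replicate 1 and 9.9e-06 without replicate 2).

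Developmental regulators were counted by list, and several counts lie near the shares over all genes (33.0% higher and 31.0% lower). Of 23 NOTCH pathway genes 13 were higher and 6 lower, with the ligand genes DLL3 (3.31) and DLL1 (5.32) higher and JAG2 (-1.37) and the target HEY1 (-2.38) lower. Of 20 HOX and related genes 10 were higher and 6 lower, with HOXD4 (1.40), HOXD9 (1.37) and HOXD3 (1.53) higher and HOXB3 lower (-1.73). Of 32 receptor tyrosine kinase and ligand genes 13 were higher and 8 lower, with ROR2 higher (3.50) and EPHA3 (-1.58) and EPHA2 (-1.42) lower. Of 9 glial and Schwann genes 5 were lower and 3 higher, among them MBP (-4.68) and PMP22 (1.97). Of 22 histone genes 8 were lower and 4 higher, H2AFX among the latter (0.60). Of 4 cancer-testis genes tested PRAME was higher (0.59) and TEX15 lower (-1.67).

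The genotype difference under Nutlin-3a was set beside the one under DMSO, which comes from other libraries. Of the 5154 genes higher under Nutlin-3a, 3557 (69.0%, and 71.9% of those higher under DMSO) were higher in both. Of the 4835 lower, 3330 (68.9%, and 69.7% of those lower under DMSO) were lower in both. Another 326 were higher under Nutlin-3a and lower under DMSO, and 265 the reverse. Across the 15616 genes the differences correlated with r = 0.84, a description over genes, which are not independent. Of 1129 genes called at 4-fold or more under DMSO, 1052 (93.2%) were called the same way under Nutlin-3a.

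**Figure D4:**
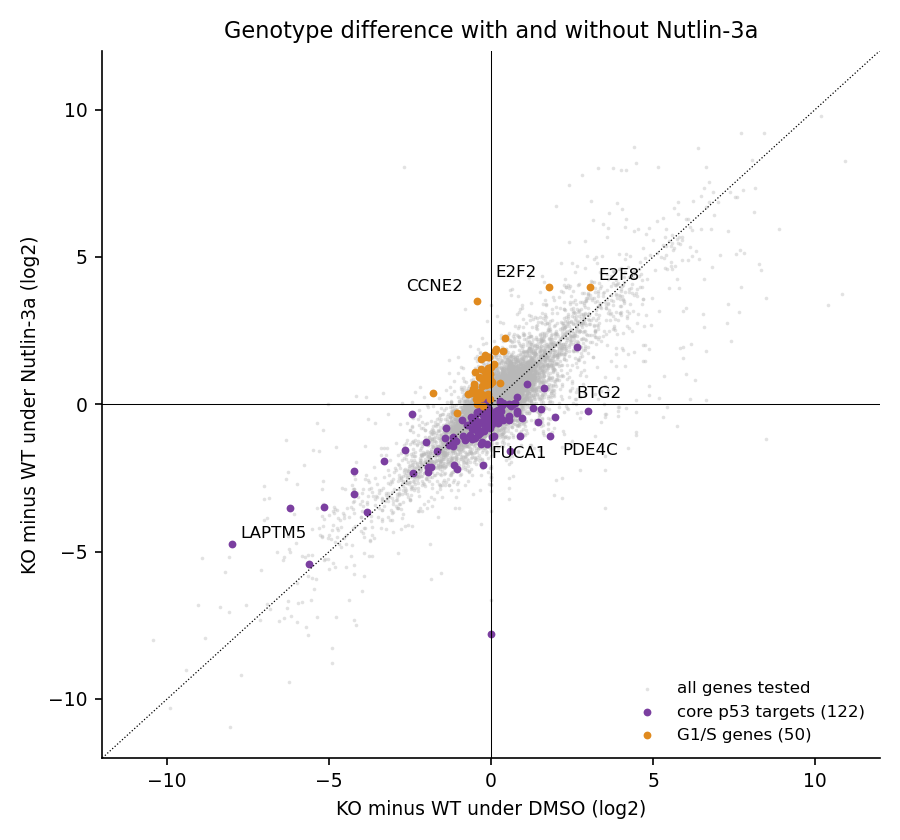
Each point is a gene, with the KO minus WT difference under DMSO on the x axis and under Nutlin-3a on the y axis (both log2); the dotted line marks equal differences. Core p53 targets (purple) lie mostly under the line and G1/S genes (orange) above it.

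Some genes were called in opposite directions in the treatments. PDE4C, a cAMP phosphodiesterase gene and p53 target, had 276 and 302 CPM in WT and 139 and 133 CPM in KO cells under Nutlin-3a (-1.09, SE 0.07), and was higher in KO cells under DMSO (1.82, adjusted p = 0.00458). TP53I3 (0.89) and TP53INP1 (1.44) were higher in KO cells under DMSO too and lower under Nutlin-3a. SLC52A1, EGR2, WDFY4 and PLCXD2 were also lower under Nutlin-3a and higher under DMSO, where SLC52A1 had 0 and 1, EGR2 2 and 2, and WDFY4 6 and 1 reads in the WT libraries. In the reverse class, DTL, a replication-coupled ubiquitin ligase adaptor, had 15.4 and 17.9 against 26.7 and 28.2 CPM under Nutlin-3a (0.72, SE 0.07) and differed by -0.56 under DMSO. EXO1 (0.68 and -0.53) and ORC1 (0.58 and -0.54), an exonuclease and an origin recognition gene, did the same. The ORC1 call was lost without KO Nutlin-3a replicate 2 (0.40, adjusted p = 0.0921).

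Some genes differed under DMSO and converged under Nutlin-3a. ACTA2, smooth muscle actin, had 76.1 and 66.1 CPM in WT and 70.1 and 68.1 CPM in KO cells under Nutlin-3a (-0.04, SE 0.07, adjusted p = 0.591), after a DMSO difference of 2.33. It passed as lower without WT Nutlin-3a replicate 2 (-0.14, adjusted p = 0.0445). TRIM64B, RGS20, DYRK1B, ANK3 and FAT3 likewise differed by 1.00 to 3.48 under DMSO and by at most 0.0535 in size, the value of DYRK1B, under Nutlin-3a. TRIM64B had 0 and 1 reads in the WT DMSO libraries, so its DMSO difference is imprecise. Other genes kept their direction with another size. TH differed by -5.54 under DMSO and -4.23 under Nutlin-3a (interaction 1.31, SE 0.09, adjusted p = 1.4e-08). PEG10, an imprinted retrotransposon-derived gene, had 8.50 and 8.44 against 92.0 and 89.3 CPM under Nutlin-3a (3.42) and differed by 1.60 under DMSO. The interaction for IP6K3, an inositol phosphate kinase gene, was -3.97, as it went from 3.38 under DMSO to -0.59 under Nutlin-3a, where its call was lost with limma-trend on unfiltered RPKM (-0.50, adjusted p = 0.0835).

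The differences were also laid out by chromosome, a description chosen after values were seen, with chromosomes taken from RefSeq (GRCh38.p14) for genes of mean log2 CPM of at least 1. On chromosome 13, 183 of 212 genes were lower in KO cells (86.3%) and 12 higher, with a median of -0.78 under Nutlin-3a and -0.87 under DMSO. The medians of the other 22 chromosomes, Y left out, ran from -0.04 to 0.20 under Nutlin-3a and from -0.06 to 0.19 under DMSO. Off chromosome 13, 32.7% of 12314 genes were lower and 34.3% higher. RB1, RFC3, CKAP2, LATS2, COL4A1, COL4A2, DACH1, SPRY2, ING1 and DNAJC3 are the list members on chromosome 13, and all 10 were lower. No core p53 target lies there, and 1 of the 50 G1/S genes does.

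**Figure D5:**
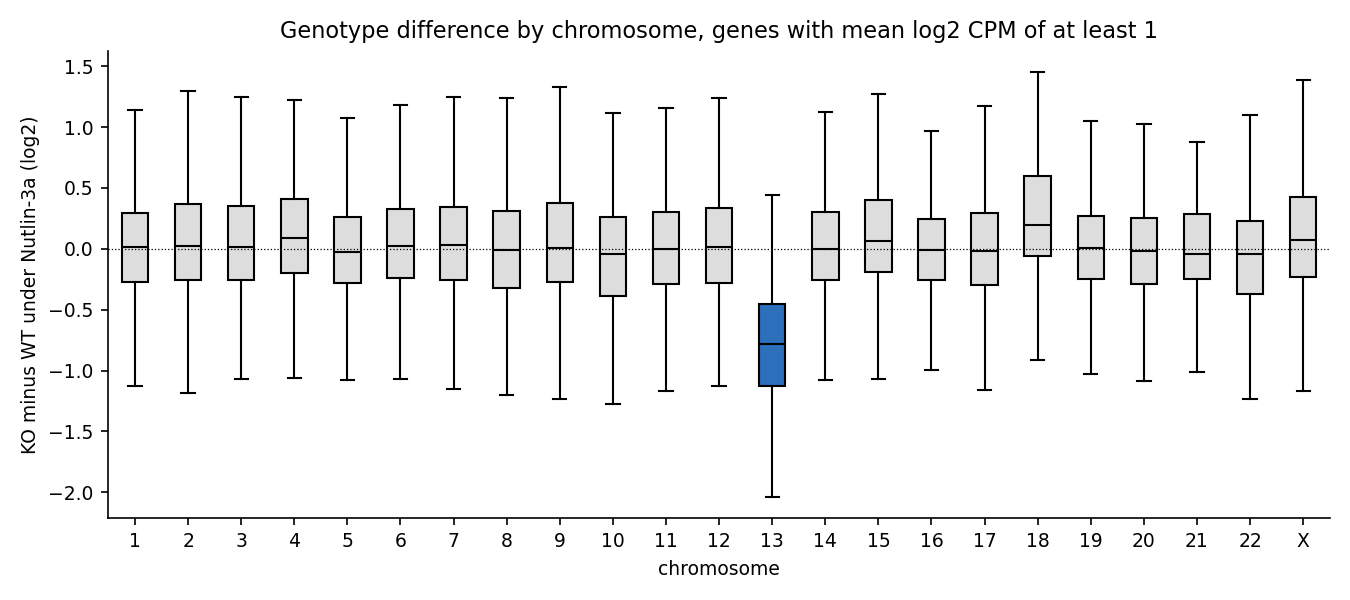
Boxes span the quartiles of the KO minus WT difference under Nutlin-3a (log2) for genes of each chromosome, with the median as a line, whiskers to the farthest value within 1.5 box lengths and points beyond them not drawn. Chromosome 13, in blue, has a median of -0.78, while the other medians lie between -0.04 and 0.20, with Y left out.

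On chromosome 9, the genes around CDKN2A were higher together. Of 9 listed neighbours 9 were higher, with a median of 3.19 in both treatments. From TMEM261 to LINGO2, 29 of 30 genes were higher and 0 lower, with a median of 2.01 under Nutlin-3a and 1.72 under DMSO. The ends of this run were set after values were seen, so its count describes the run and tests nothing. Over all of chromosome 9, 187 of 514 genes were higher and 166 lower under Nutlin-3a, with a median of 0.01. MTAP, the methylthioadenosine phosphorylase gene beside CDKN2A, had 7.71 and 8.37 CPM in WT and 72.4 and 68.4 CPM in KO cells (3.13, SE 0.07). ELAVL2, a neuronal RNA-binding protein gene, had 1.84 and 1.83 against 43.4 and 40.7 CPM (4.51, SE 0.11). PLIN2 and RPS6, named among the widest and most abundant rises, lie in the same run. The member not called was ACER2, a ceramidase gene and core p53 target (-0.16, adjusted p = 0.382), which was higher in KO cells under DMSO (1.54). The gene copy number of these cells was not analysed here.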

How the data were processed

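Poly(A) RNA of 8 CHP212 libraries was sequenced with a strand-specific kit, per the labels' protocols. The authors deposited raw read counts per gene and RPKM values, that is read counts scaled by gene length and library total. The submitters' processing notes list the build hg19, the aligners TopHat2 2.1.1 and Bowtie2 2.2.9.0, the counter HTSeq 0.8.0, and FastQC 0.11.5, Picard 2.9.4, SAMtools 1.5 and bcl2fastq. Neither the annotation nor whether counting used strand is given in the sources used here, and reads of overlapping, antisense or near-identical genes may be shared or split.

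Counts were tested with edgeR 4.0.16 (R 4.3.3), by a robust quasi-likelihood F test on 4 group means over 8 libraries. TMM factors and Benjamini-Hochberg adjustment over 15616 genes were used, with a threshold of 0.05, 4 residual degrees of freedom and a common biological coefficient of variation of 0.0423. The groups' spread was pooled because each held 2 replicates, although it was unequal. Replicate noise, as chi-square per gene, was 9.202 (WT) and 3.989 (KO) under Nutlin-3a, and 2.67 (WT) and 2.388 (KO) under DMSO. The SEs under Nutlin-3a thus rest partly on groups with less spread than the WT libraries compared. Fitting the 4 Nutlin-3a libraries alone gave 4768 higher and 4592 lower, against 5154 and 4835. Fitting the 4 DMSO libraries alone gave 5354 higher and 5224 lower, against 4946 and 4779. Of the 15616 genes, 490 passed the read minimum only through the KO libraries and 263 only through the WT libraries. The test scripts were checked on simulated counts.

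Genes were named by a rule: the targeted gene, MDM2, MDM4, CDKN1A, BAX, BBC3 and MYCN, then the called genes of mean log2 CPM of at least 1 with the widest differences (12 each way), the widest RPKM differences (6 each way), the widest interactions (8 each way), opposite calls (6 each way), convergence (6), and the leading members of each list. Some genes that the rule names are not reported here. The members and lists were chosen with earlier results of these data known. Alternatives were DESeq2 size factors, upper-quartile factors, other read minimums, the DESeq2 1.42.0 Wald test, limma-trend (limma 3.58.1) on log2(RPKM + 0.1) and log2(RPKM + 1) of the deposited RPKM values, a fit of 4 libraries, a replicate block, stricter thresholds and leaving out libraries. Summaries used Python 3.11.15 and pandas 2.3.3.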

Additional observations from a re-analysis of the deposited data

Results flagged for a closer look

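For the genes below, the KO minus WT difference under Nutlin-3a differed from that under DMSO by at least 1 on the log2 scale, by the interaction test of edgeR (adjusted p between 8.7e-12 and 0.0382). Values are the difference under Nutlin-3a minus the difference under DMSO.

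Among p53 targets and regulators, the interaction was negative for BTG2 (-2.40), TP53INP1 (-2.02), TP53I3 (-1.97), ACER2 (-1.69), MDM2 (-1.23), KITLG (-1.09), RRM2B (-1.02), TLR3 (-1.15) and PDE4C (-2.91). Their differences under Nutlin-3a were thus lower than under DMSO.

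Cell cycle and replication genes stood on the positive side. The transcription factor and cyclin genes were E2F1 (1.81), E2F2 (2.18), CCNE1 (1.45), CCNE2 (3.94) and CCNA2 (1.05). The replication and repair genes were MCM2 (1.72), MCM3 (1.85), PRIM1 (1.74), UNG (1.80), CDC6 (1.07), ORC1 (1.12), DTL (1.28), EXO1 (1.21), FAM111B (2.16) and WDR76 (2.79). The phosphatase gene CDC25A (1.29) and the mitotic kinase gene AURKB (1.40) were alike, as was PHGDH of serine synthesis (1.08).

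Genes of other roles with a positive value were FOXL2 (2.44), GDF10 (1.00), MYD88 (1.15), PEG10 (1.82), PMP22 (1.23) and TH (1.31). FOXL2, MYD88 and TH were lower in KO cells in both treatments, and by less under Nutlin-3a.

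Negative values were also found for ACTA2 (-2.37), CTGF (-1.07), CYR61 (-1.07), DYRK1B (-1.26), EGR2 (-3.75), FAT3 (-1.05), IP6K3 (-3.97), PLCXD2 (-2.33), RGS20 (-2.05), SLC52A1 (-4.33), TRIM64B (-3.48) and WDFY4 (-2.66).

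Some of these values rest on few reads and are imprecise. In the WT DMSO libraries TRIM64B and SLC52A1 each had 0 and 1 reads, EGR2 had 2 and 2, WDFY4 had 6 and 1 and PDE4C had 6 and 5. FOXL2 had 1 and 2 reads and MYD88 6 and 11 in the KO DMSO libraries, and E2F2 had 5 and 6 in the WT Nutlin-3a libraries.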

How the results depend on the processing

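With a threshold of more than 2-fold, 1583 genes were higher and 1315 lower in KO cells under Nutlin-3a, with 20 G1/S and 2 G2/M genes higher and 39 core p53 targets, 11 mesenchymal and 7 MHC class I genes lower. Under DMSO that threshold left 1535 higher and 1103 lower, and in the interaction 249 and 333. The interaction fell to 1441 higher and 1305 lower at 0.01, and to 1312 lower with limma-trend on log2(RPKM + 0.1) without a filter. Leaving out each library in turn gave 4388 to 5075 genes higher and 4186 to 4877 lower under Nutlin-3a, 4179 to 5064 and 4003 to 5388 under DMSO, and 1623 to 2861 and 1495 to 2515 in the interaction. G1/S genes higher then ran from 40 to 45, G2/M from 35 to 40, and genes lower from 95 to 99 (core p53), 25 to 28 (mesenchymal) and 15 to 16 (MHC class I). Without the 3 libraries with unrelated reads, 4923 genes were higher and 4903 lower under Nutlin-3a, with 42 G1/S and 34 G2/M genes higher and 96 core p53 targets lower. With the replicate block 5146 genes were higher and 4829 lower. Replicate differences of equal number correlated from -0.053 to 0.112 between groups, so the numbers were not taken as pairs. Of 224 genes named, 200 kept direction and side of the threshold in every alternative run, and UHRF1 turned to -0.16 without the 3 libraries with reads of unrelated genes. The cause of these shifts was not tested, other than the stricter thresholds by construction. With 2 replicates a group, differences near the threshold depend on single libraries.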
